A study of Mus musculus with 19 samples.

Results

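The genes described here are 9 components of the mouse complement system, *C1qa*, *C1qb*, *C1qc*, *C1ra*, *C2*, *C3*, *C4b*, *Cfb* and *Hc*, the last of which encodes complement C5. They were taken by symbol from the gene names of 3 expression tables, and each table lists all of them. They are 9 of the 55573 genes listed for 7 tissues, 9 of the 55487 listed for brown adipose tissue (BAT) and 9 of the 13756 listed for inguinal white adipose tissue (iWAT). The study examined Musclin, a peptide secreted by skeletal muscle and encoded by *Ostn*, in adipose thermogenesis and energy balance. RNA-Seq was performed on 7 tissues of C57BL/6J wild-type (WT) mice on chow diet, with 1 library each for liver, white adipose, brown adipose, small intestine, heart, tibialis anterior muscle and brain. These mice were male, and their exact age and the depot of the white adipose library are not given in the sources used here. iWAT and BAT came from male WT mice and MCK-Musclin mice, both 5 months old, fed chow and kept at 8 °C for 1 week, with 3 animals per genotype and depot. MCK-Musclin mice carry the full-length Musclin coding sequence behind the promoter of the murine muscle creatine kinase gene, which drives it in skeletal muscle, and their founder lines had been backcrossed to C57BL/6J.

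Complement is a cascade of plasma proteins that tags microbes, immune complexes and dying cells for removal. The classical pathway begins when C1q binds its target and activates the proteases C1r and C1s, which cut C4 and C2. The alternative pathway instead uses factor B and factor D, and all routes meet at C3 and go on to C5 and the membrane attack complex. The liver supplies most of the plasma components, macrophages are a main source of C1q, and adipocytes are known for secreting factor D, also called adipsin, together with C3 and factor B.

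Levels are given in FPKM, which divides a gene's fragments by its exon length and by the library's mapped total, so that genes can be compared per length. How many reads stand behind a value is not known. Relative to heart, the depth of the 7 tissue libraries lay between 0.918 and 1.05, as read from the steps between low values, and that of the BAT libraries lay between 0.890 and 1.11 relative to WT library 1. Only ratios near equal depth were searched, so a large difference in depth could not have shown. For iWAT the depth cannot be read in this way. The transgene was read first, as a check of the labels. *Ostn* was listed at 0 in all 3 WT libraries of BAT and at 37.9, 31.6 and 30.3 FPKM in MCK-Musclin libraries 1 to 3. In iWAT it was listed at 0, 0 and 0.225 FPKM in WT libraries 1 to 3 and at 0, 5.17 and 4.21 FPKM in MCK-Musclin libraries 1 to 3, so that MCK-Musclin library 1 of iWAT showed no *Ostn*. Skeletal myocyte markers, a list of 6 genes, summed to 6.67 FPKM in that library and to 83.4 and 96.3 FPKM in MCK-Musclin libraries 2 and 3, so that a transgene with a muscle promoter at 0 neither supports nor contradicts its label. In library 1 the brown adipocyte markers, a list of 6 genes led by *Cidea*, summed to 575 FPKM, inside the range of the WT libraries with 516, 805 and 993 FPKM, while MCK-Musclin libraries 2 and 3 had 179 and 87.5 FPKM. T cell markers, in contrast, summed to 151 FPKM in it, near MCK-Musclin libraries 2 and 3 with 148 and 153 FPKM and above the WT libraries with 104, 81.8 and 107 FPKM. The muscle of these mice was not analysed here.

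The 7 tissues showed 2 patterns among the components. *C1ra*, *C3*, *C4b*, *Cfb* and *Hc* had their highest level in liver, and *C1qa*, *C1qb*, *C1qc* and *C2* had theirs in white adipose tissue, a split that holds for FPKM but not for TPM, under which *C4b* was highest in white adipose tissue. By comparison, of the 10413 genes with at least 10 FPKM in 1 of the tissues, 9.56% were highest in liver and 19.9% in white adipose tissue. Summed over the 9 components, FPKM was 2977 in liver, 1206 in white adipose, 199.7 in brown adipose, 179 in small intestine, 71.3 in heart, 59.99 in brain and 30.3 in tibialis anterior muscle. *C3* made up 68.1% of the sum in liver and 44.8% in white adipose tissue, but 1.15% in brain, where the 3 C1q chains were the most abundant components. Each tissue had 1 library, so the differences between tissues have no replicate check.

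**Figure D1:**
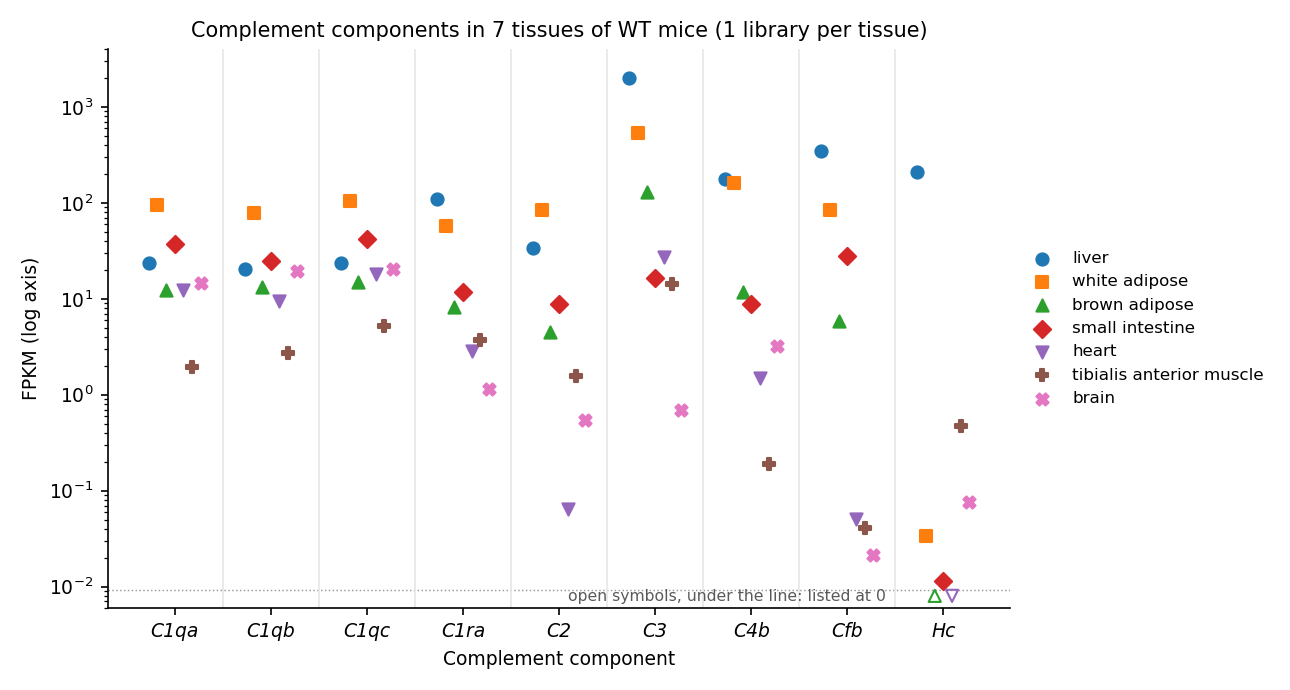
FPKM of the 9 complement components (horizontal axis) in 7 tissues of WT mice on a log axis, with 1 symbol per library and open symbols for values listed at 0. Liver holds the highest symbol for 5 components, among them *C4b* by a small margin, and white adipose tissue for the other 4, and *Hc* is far above 1 FPKM in liver alone.

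The 3 chains of C1q are encoded by neighbouring genes on the minus strand of chromosome 4 (GRCm38). *C1qb* (ENSMUSG00000036905) lies at 136880129 to 136886187, *C1qc* (ENSMUSG00000036896) at 136889804 to 136893065 and *C1qa* (ENSMUSG00000036887) at 136895917 to 136898803, with gaps of 3616 and 2851 bases between them. Because the chains followed each other from library to library, the RefSeq promoters of *C1qb* and *C1qc* are printed (GRCm38.p6, minus strand, 250 bases before the start site and 50 from it on). RefSeq promoters were matched by symbol for 5 of the 9 components, *C1qb*, *C1qc*, *C1ra*, *C3* and *Hc*; *C1qa*, *C2*, *C4b* and *Cfb* are named only. The letters GAGGAA, the core of sites bound by the myeloid factor PU.1, were searched on both strands and are in capitals. With the start site counted as 0, they begin at -30 on the plus strand of the *C1qb* promoter at chr4:136886151-136886450 and at -193 on the minus strand, read as TTCCTC, of the *C1qc* promoter at chr4:136892865-136893164. They also occur once in the *C1ra* promoter, at 44 on the minus strand. Of all 32851 promoters of this length 28.3% hold these letters, so a match is common.
C1qb: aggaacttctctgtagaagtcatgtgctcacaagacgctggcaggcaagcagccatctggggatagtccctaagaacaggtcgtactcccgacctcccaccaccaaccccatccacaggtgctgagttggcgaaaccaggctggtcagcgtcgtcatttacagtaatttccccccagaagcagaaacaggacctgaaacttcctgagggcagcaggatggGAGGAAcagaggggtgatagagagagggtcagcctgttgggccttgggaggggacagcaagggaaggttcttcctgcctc
C1qc: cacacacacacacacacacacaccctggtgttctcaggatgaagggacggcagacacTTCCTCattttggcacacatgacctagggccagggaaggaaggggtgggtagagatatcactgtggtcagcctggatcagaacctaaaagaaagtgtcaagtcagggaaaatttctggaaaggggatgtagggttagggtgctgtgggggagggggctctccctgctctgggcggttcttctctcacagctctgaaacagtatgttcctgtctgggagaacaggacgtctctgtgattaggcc

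In the 7 tissues the C1q chains were highest in white adipose tissue and lowest in muscle. *C1qa* had 94.8 FPKM in white adipose, 37.7 in small intestine, 23.6 in liver, 14.6 in brain, 12.3 in brown adipose, 12.3 in heart and 1.92 in muscle. *C1qb* had 79.3 FPKM in white adipose, 24.6 in small intestine, 20.3 in liver, 19.3 in brain, 13.2 in brown adipose, 9.42 in heart and 2.71 in muscle. *C1qc* had 104.8 FPKM in white adipose, 42.5 in small intestine, 23.7 in liver, 20.5 in brain, 18.0 in heart, 14.9 in brown adipose and 5.23 in muscle. The first 4 tissues therefore came in the same order for each chain. White adipose stood 2.52, 3.22 and 2.47 times above small intestine for *C1qa*, *C1qb* and *C1qc*, while liver and brain differed by 1.05 times for *C1qb*. On the log2(FPKM + 1) scale the chains correlated with each other at Pearson's r of 0.971 to 0.988 over the 7 tissues, and with *C3* at 0.375 to 0.440. These values describe 7 libraries, 1 per tissue.

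After 1 week at 8 °C, the C1q chains were higher in iWAT than in BAT, where they were the most abundant components after *C3*. In iWAT, *C1qa* had 53.3, 62.4 and 59.1 FPKM in WT libraries 1 to 3 and 77.8, 50.6 and 79.5 FPKM in MCK-Musclin libraries 1 to 3. *C1qb* had 72.8, 72.4 and 79.6 FPKM in WT mice and 106.5, 66.8 and 109.6 FPKM in MCK-Musclin mice. *C1qc* had 99.4, 117 and 96.8 FPKM in WT mice and 136, 99.7 and 142 FPKM in MCK-Musclin mice. For all 3 chains MCK-Musclin libraries 1 and 3 lay above every WT library, while MCK-Musclin library 2 lay inside the WT range for *C1qc* and below it for *C1qa* and *C1qb*, so that the groups overlapped. The group means were 58.3 ± 4.59 and 69.3 ± 16.2 FPKM for *C1qa*, 74.95 ± 4.06 and 94.3 ± 23.8 for *C1qb*, and 104.6 ± 11.3 and 125.9 ± 22.8 for *C1qc* (SD, n = 3 each).

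The groups were compared with limma on log2(FPKM + 1), which shrinks differences between low values, and p-values were two-sided and adjusted by the Benjamini-Hochberg method over all genes tested. In iWAT the log2 fold change of MCK-Musclin against WT was 0.22 for *C1qa* (SE 0.18, adjusted p = 0.578), 0.29 for *C1qb* (SE 0.19, adjusted p = 0.473) and 0.25 for *C1qc* (SE 0.16, adjusted p = 0.454). The 95% interval of each spanned 0, from -0.20 to 0.64 for *C1qa*, from -0.15 to 0.74 for *C1qb* and from -0.11 to 0.62 for *C1qc*. With 1 library left out at a time the values ranged from 0.11 to 0.43, from 0.17 to 0.52 and from 0.16 to 0.41, highest without MCK-Musclin library 2 and lowest without MCK-Musclin library 3. Without MCK-Musclin library 1, which showed no *Ostn*, they were 0.12, 0.19 and 0.19.

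In BAT, *C1qa* had 7.40, 6.35 and 7.40 FPKM in WT libraries 1 to 3 and 11.6, 4.58 and 7.18 FPKM in MCK-Musclin libraries 1 to 3. *C1qb* had 12.3, 7.44 and 8.30 FPKM in WT mice and 13.5, 8.57 and 9.39 FPKM in MCK-Musclin mice, and *C1qc* had 12.3, 10.4 and 13.7 FPKM in WT mice and 20.7, 9.43 and 11.7 FPKM in MCK-Musclin mice. MCK-Musclin library 1 was the highest of the 6 for each chain, and the other MCK-Musclin libraries lay among or below the WT libraries. The log2 fold changes were 0.05, 0.16 and 0.12 for *C1qa*, *C1qb* and *C1qc* (limma adjusted p = 0.996, 0.974 and 0.987). Without MCK-Musclin library 1 they were -0.25, -0.02 and -0.19.

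**Figure D2:**
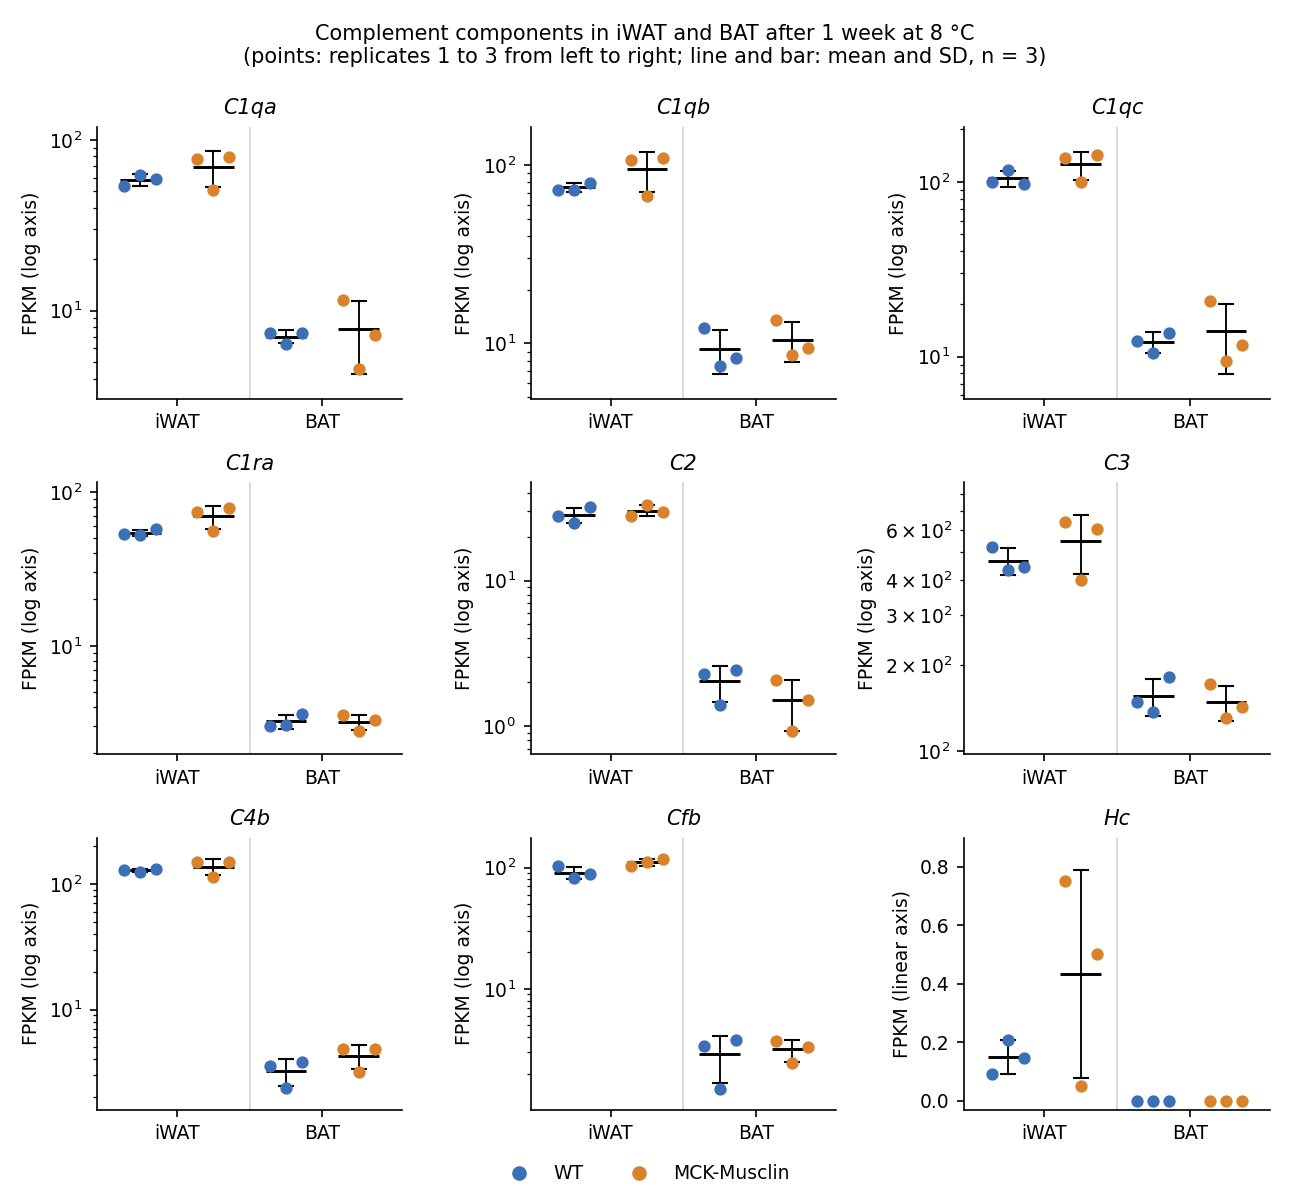
FPKM of each component in the 12 libraries of mice kept at 8 °C, with 1 point per library, replicates 1 to 3 from left to right, and the mean and SD of each group (n = 3). The axis is logarithmic for 8 components and linear for *Hc*, which is listed at 0 in all BAT libraries; the genotypes overlap for every component listed above 0, and each is higher in iWAT than in BAT.

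The level of the C1q chains went with that of macrophage markers, a list of 12 genes that includes *Adgre1*, *Csf1r* and *Mrc1*. Summed over the list, FPKM was 615 in white adipose, 171 in small intestine, 109.9 in liver, 102 in brown adipose, 70.8 in heart, 40.3 in brain and 20.7 in muscle. In iWAT the sums were 679, 652 and 639 FPKM in WT libraries 1 to 3 and 915, 671 and 954 FPKM in MCK-Musclin libraries 1 to 3. In BAT they were 46.5, 43.1 and 56.5 FPKM in WT mice and 121, 43.5 and 48.5 FPKM in MCK-Musclin mice. MCK-Musclin library 2 of iWAT and MCK-Musclin library 1 of BAT thus stood apart from the other libraries of their group in the markers as they did in C1q. The most abundant marker was *Lyz2* in every library but brain, where it was *Cd68*, and no marker was listed at 0 in the 12 cold libraries. *Lyz2* alone made up 336 FPKM of the sum in white adipose tissue. In WT library 1 of iWAT and MCK-Musclin library 1 of BAT it made up 366 and 79.4 FPKM, so the sums lean on this gene. Over the 7 tissues the mean log2(FPKM + 1) of the chains correlated with that of the markers at r = 0.923, and over the 12 cold libraries, with each depot's mean subtracted, at r = 0.930. These are descriptions of libraries in which chains and markers were read together and share the same scaling. *C3* followed the markers as well, at r = 0.658 over the tissues and 0.756 over the cold libraries. With lists of hepatocyte and general adipocyte markers, *C3* correlated at 0.616 and 0.497 over the tissues and at -0.08 and -0.52 over the cold libraries. The hepatocyte list held 8 genes over the tissues but only 3 over the cold libraries, each at most 0.622 FPKM in BAT. Brain had a mean of 18.1 FPKM over the C1q chains, above the other tissues at its marker level, but this list was not made for the macrophages of the brain. More cells of a type and more RNA per cell cannot be told apart in bulk tissue, and the part of macrophages in the C1q levels was not tested.

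**Figure D3:**
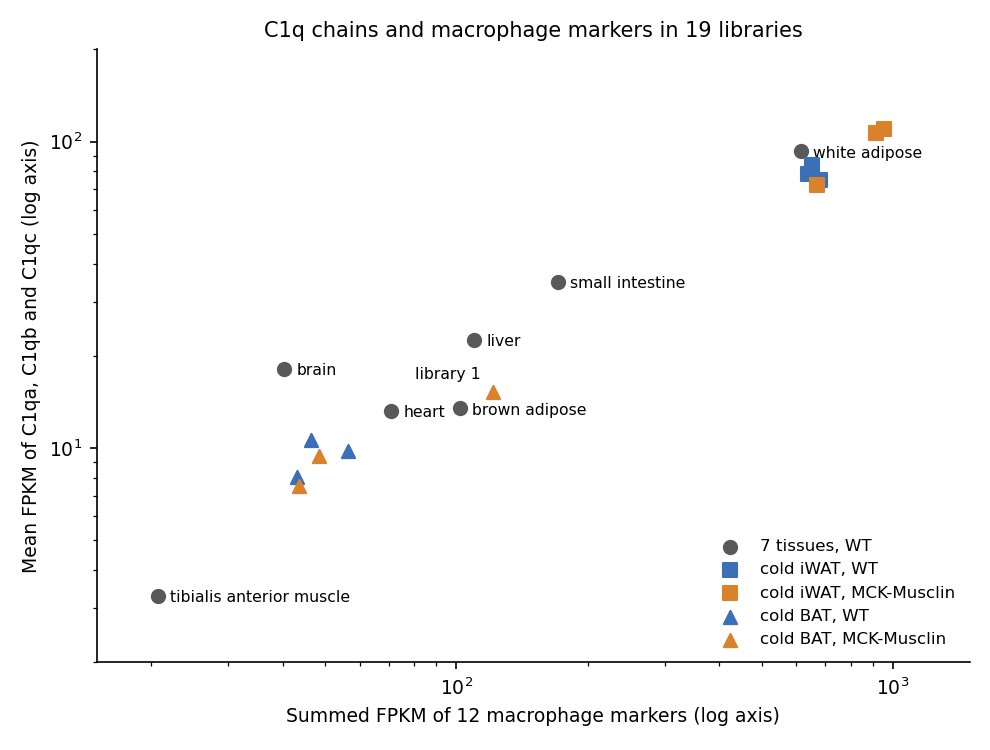
Mean FPKM of *C1qa*, *C1qb* and *C1qc* against the summed FPKM of 12 macrophage markers in all 19 libraries, 1 point per library, both axes logarithmic. The points run from muscle to iWAT, MCK-Musclin libraries 1 and 3 of iWAT lie at the top, and brain lies above the other tissues at its marker level.

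C1r, C4 and C2 act next to C1q in the classical pathway. *C1ra* (ENSMUSG00000055172; chromosome 6, 124512405 to 124523443, plus strand) encodes the protease C1r. It had 110.6 FPKM in liver, 57.5 in white adipose, 11.9 in small intestine, 8.29 in brown adipose, 3.73 in muscle, 2.86 in heart and 1.14 in brain. In iWAT *C1ra* had 53.0, 52.8 and 57.2 FPKM in WT libraries 1 to 3 and 74.0, 55.4 and 78.4 FPKM in MCK-Musclin libraries 1 to 3. The groups overlapped because MCK-Musclin library 2 lay below WT library 3. The log2 fold change was 0.33 (SE 0.14, unadjusted p = 0.0497, limma adjusted p = 0.303), the highest among the components. In BAT *C1ra* had 2.99, 3.05 and 3.62 FPKM in WT mice and 3.53, 2.80 and 3.27 FPKM in MCK-Musclin mice, with a log2 fold change of -0.01 (adjusted p = 0.997). *C1rb*, a near-identical copy 46850 bases away, was listed at 5.09 to 7.17 FPKM in iWAT, and how reads were divided between both genes is uncertain.

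*C4b* (ENSMUSG00000073418; chromosome 17, 34728380 to 34743882, minus strand) encodes C4, which C1s cuts. It had 177 FPKM in liver, 159.5 in white adipose, 11.7 in brown adipose, 8.78 in small intestine, 3.19 in brain, 1.49 in heart and 0.190 in muscle. Liver and white adipose differed by 1.11 times, and their order turned when FPKM was rescaled to TPM, with 318 in liver and 379.7 in white adipose. In iWAT *C4b* had 129, 125 and 132 FPKM in WT libraries 1 to 3 and 149, 114 and 149.7 FPKM in MCK-Musclin libraries 1 to 3, where library 2 was the lowest of all 6. The log2 fold change was 0.09 (SE 0.13, limma adjusted p = 0.771). In BAT *C4b* had 3.54, 2.36 and 3.83 FPKM in WT mice and 4.80, 3.20 and 4.89 FPKM in MCK-Musclin mice. Its log2 fold change of 0.32 was the highest of the components in BAT, with overlapping groups (SE 0.19, unadjusted p = 0.141, adjusted p = 0.968), and it ranged from 0.16 to 0.48 with 1 library left out. Reads of *C4b* and of its near-identical copy *C4a*, 65209 bases away and at most 44.5 FPKM in liver, may have been assigned to either.

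*C2* (ENSMUSG00000024371; chromosome 17, 34862604 to 34898265) and *Cfb* (ENSMUSG00000090231; chromosome 17, 34856374 to 34862518) lie 85 bases apart on the minus strand and encode the related proteases of the classical and the alternative pathway. *C2* had 85.3 FPKM in white adipose, 33.9 in liver, 8.81 in small intestine, 4.47 in brown adipose, 1.57 in muscle, 0.549 in brain and 0.0642 in heart. *Cfb* had 348 FPKM in liver, 84.995 in white adipose, 28.2 in small intestine, 5.91 in brown adipose, 0.0503 in heart, 0.0404 in muscle and 0.0212 in brain. The neighbours thus differed in their first tissue, with a ratio of *C2* to *Cfb* of 0.0974 in liver and 1.00 in white adipose. In the annotation 1656 of the 3872 exon bases of *C2* and 2246 of the 2825 of *Cfb* are shared with *Gm20547* on the same strand, which had at most 1.72 FPKM in the 7 tissues, so part of their reads may have been assigned to it.

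In iWAT *C2* had 27.8, 25.0 and 31.9 FPKM in WT libraries 1 to 3 and 27.8, 33.0 and 29.8 FPKM in MCK-Musclin libraries 1 to 3, and its log2 fold change was 0.10 (SE 0.12, limma adjusted p = 0.725). *Cfb* had 102.5, 81.6 and 89.3 FPKM in WT mice and 102.3, 111 and 118 FPKM in MCK-Musclin mice. MCK-Musclin libraries 2 and 3 were above every WT library for *Cfb*, and library 1 lay just under WT library 1. Its log2 fold change was 0.28 (SE 0.11, unadjusted p = 0.0435, limma adjusted p = 0.286). In BAT *C2* had 2.28, 1.39 and 2.45 FPKM in WT mice and 2.07, 0.919 and 1.52 FPKM in MCK-Musclin mice, with a log2 fold change of -0.29 (adjusted p = 0.968; -0.45 to -0.11 with 1 library left out). *Cfb* had 3.38, 1.50 and 3.79 FPKM in WT mice and 3.71, 2.44 and 3.34 FPKM in MCK-Musclin mice, with a log2 fold change of 0.14 (adjusted p = 0.984). The genotypes overlapped for both genes in both depots.

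*C3* (ENSMUSG00000024164; chromosome 17, 57203970 to 57228136, minus strand), at which all pathways meet, was the most abundant component in liver, both adipose tissues, heart and muscle. It had 2027 FPKM in liver, 540.2 in white adipose, 129 in brown adipose, 27.1 in heart, 16.5 in small intestine, 14.4 in muscle and 0.691 in brain. In iWAT *C3* had 524, 433 and 444 FPKM in WT libraries 1 to 3 and 638, 399.7 and 605 FPKM in MCK-Musclin libraries 1 to 3. As for *C1qa* and *C1qb*, libraries 1 and 3 of MCK-Musclin mice lay above every WT library and library 2 below them. The log2 fold change was 0.20 (SE 0.19, limma adjusted p = 0.634), from 0.0792 without MCK-Musclin library 1 to 0.42 without MCK-Musclin library 2. In BAT *C3* had 149, 137 and 181 FPKM in WT mice and 172, 131 and 142 FPKM in MCK-Musclin mice, with a log2 fold change of -0.07 (adjusted p = 0.986). *C3* held 42.9% to 49.3% of the components' summed FPKM in iWAT and 74.1% to 80.8% in BAT.

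The RefSeq promoter of *C3* (GRCm38.p6, chr17:57228087-57228386, minus strand) is shown as that of the most abundant component. The letters TTGCGNAA, which many sites of C/EBP factors hold, begin at -45 on the plus strand and are in capitals. This motif was chosen after the sequence was seen, it is held by 0.798% of the 32851 promoters on either strand, and the 4 other promoters matched do not hold it.
C3: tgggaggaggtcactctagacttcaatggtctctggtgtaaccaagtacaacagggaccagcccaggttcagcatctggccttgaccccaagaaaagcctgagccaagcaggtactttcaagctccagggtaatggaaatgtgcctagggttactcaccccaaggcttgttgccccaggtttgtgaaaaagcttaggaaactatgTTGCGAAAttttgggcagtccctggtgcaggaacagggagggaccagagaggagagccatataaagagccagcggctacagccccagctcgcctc

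*Hc* (ENSMUSG00000026874; chromosome 2, 34983331 to 35061438, minus strand) encodes C5, the start of the terminal pathway. It had 212 FPKM in liver, which was 99.7% of its FPKM summed over the 7 tissues. It had 0.476 FPKM in muscle, 0.0755 in brain, 0.0338 in white adipose and 0.0113 in small intestine, and it was listed at 0 in brown adipose and heart. In iWAT *Hc* had 0.0931, 0.209 and 0.147 FPKM in WT libraries 1 to 3 and 0.751, 0.0507 and 0.501 FPKM in MCK-Musclin libraries 1 to 3, and it was listed at 0 in all 6 BAT libraries. Its mean was under 1 FPKM in each cold table, so it was not tested. The highest and the lowest *Hc* value of iWAT were both in MCK-Musclin mice. *Alb*, the most abundant of the 3 hepatocyte markers in the iWAT table, had 27.0, 16.6 and 8.50 FPKM in WT mice and 11.3, 18.6 and 7.29 FPKM in MCK-Musclin mice.

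Taken over all components, the question was whether MCK-Musclin mice differed from WT mice in iWAT. Values of all 8 components tested lay above 0, with log2 fold changes from 0.09 for *C4b* to 0.33 for *C1ra*, but none passed the test. The 8 are those with a mean of at least 1 FPKM over the 6 libraries. By limma at an adjusted p under 0.05, 0 of 8 components were called, as were 0 of the 12197 genes tested (0%). At an unadjusted p under 0.05 there were 2 components, *C1ra* and *Cfb*, and 2012 genes (16.5%), and the smallest adjusted p of any gene was 0.0912. At the cutoff of the study for iWAT, which asks for an unadjusted p below 0.05 and for over 0.5 log2 in size, there were 0 components in either direction, against 615 genes higher (5.04%) and 110 lower (0.902%) in MCK-Musclin mice. The study applied its cutoffs to values from DESeq2, and here they were applied to those from limma, so the counts are not those of the study. Groups did not overlap for 0 of 8 components, against 2183 genes higher (17.9%) and 663 lower (5.44%). With 3 libraries per group the smallest two-sided p of an exact permutation is 0.1.

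The median log2 fold change was 0.24 over the 8 components and 0.06 over all genes tested, of which 61.3% lay above 0. The components' median ranged from 0.14 to 0.41 with 1 library left out, and was 0.17 without MCK-Musclin library 1. With median-ratio scaling of the libraries the medians were 0.16 and -0.01, and all 8 values still lay above 0, from 0.01 for *C4b* to 0.25 for *C1ra*. Under that scaling 426 genes were higher and 187 lower at the cutoff of the study. Centred on 8 general adipocyte markers, the medians were 0.46 and 0.28, and 2028 genes were higher and 34 lower. The adipocyte markers themselves had a median of -0.20, with 0 of 8 above 0.

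In BAT the components lay on both sides of 0. Of the 8 tested, 5 had a log2 fold change above 0, from -0.29 for *C2* to 0.32 for *C4b*, and the median was 0.09, against -0.01 over all genes tested, of which 47.7% lay above 0. With 1 library left out the median ranged from -0.12, with 2 of 8 above 0, to 0.27, with 7 of 8 above 0. By limma 0 of 8 were called, and *Ostn*, the transgene, was the 1 gene called of 10893 (0.00918%; log2 fold change 5.09, adjusted p = 3.83e-06). At an unadjusted p under 0.05 there were 0 components and 533 genes (4.89%). The cutoff of the study for BAT, with a log2 fold change over 0.3 in size, was met by 0 components, by 202 genes higher (1.85%) and by 234 genes lower (2.15%) in MCK-Musclin mice. Centred on the adipocyte markers, 666 genes were higher and 45 lower. The median was then 0.24 over the components, with 7 of 8 above 0, and 0.15 over all genes. Groups did not overlap for 0 components, against 4.38% of genes higher and 5.63% lower.

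**Figure D4:**
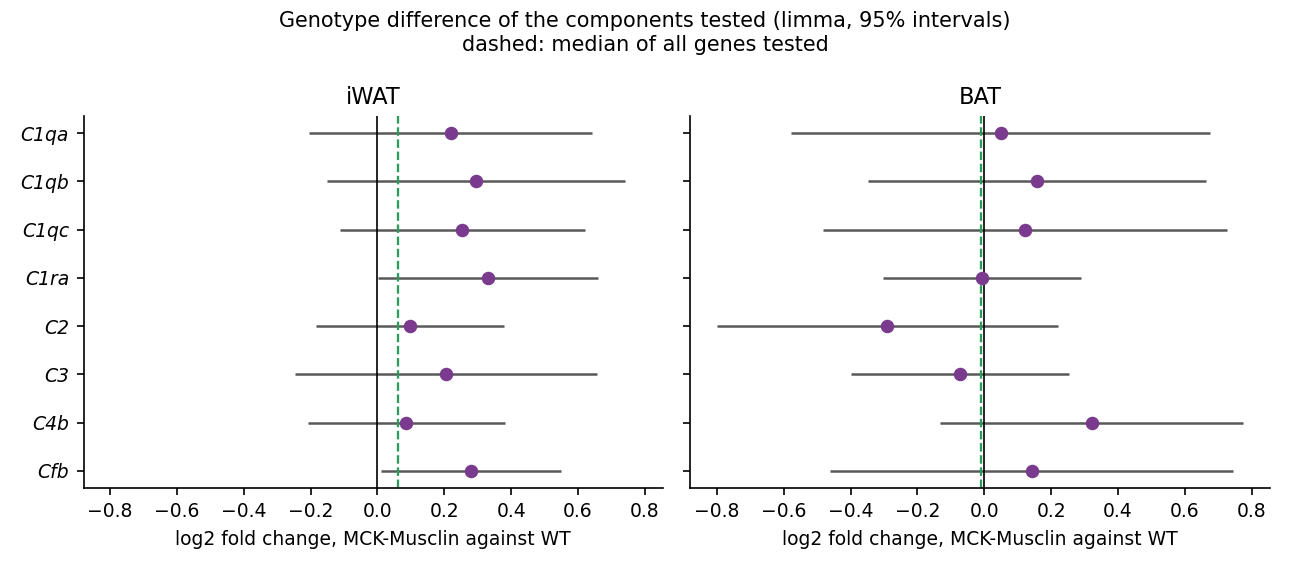
Log2 fold change of MCK-Musclin against WT on the log2(FPKM + 1) scale, with 95% intervals from limma, for the 8 components tested in iWAT and in BAT (3 libraries per group), and the median of all genes as a dashed line. All 8 points lie above 0 in iWAT and 5 of 8 do in BAT, and the intervals span 0 except those of *C1ra* and *Cfb* in iWAT.

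The genotype difference itself was compared between the depots in a limma fit of all 12 cold libraries. The difference in iWAT minus that in BAT was called for 0 of 8 components, with values from -0.23 for *C4b* to 0.39 for *C2*, a median of 0.15 against 0.06 over all genes, and 0 components at an unadjusted p under 0.05. With 1 library left out the components' median ranged from 0.0126 to 0.39. Of the 11645 genes tested 1371 had an unadjusted p under 0.05 and 1 was called (0.00859%), *Tmod2*, which was chosen for mention after its value was seen and was not called under other scalings. The components' genotype differences were therefore not shown to differ between iWAT and BAT.

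Between the depots of WT mice, the components were higher in iWAT than in BAT after 1 week at 8 °C. All 8 components tested were called higher and 0 lower by limma, on a background in which 8453 genes (72.6%) were called higher and 1065 (9.15%) lower. The log2 difference was 4.95 for *C4b* (SE 0.17, adjusted p = 1.54e-09), 4.61 for *Cfb* (SE 0.21, adjusted p = 5.72e-09) and 3.71 for *C1ra* (SE 0.13, adjusted p = 1.82e-09). It was 3.28 for *C2*, 3.01 for *C1qc*, 2.90 for *C1qb* and 2.88 for *C1qa*, and lowest for *C3* at 1.58 (SE 0.18, adjusted p = 5.79e-06). Every WT library of iWAT exceeded every WT library of BAT for each of the 8. The share of all genes for which this held was not computed, but 84.2% of those tested had a log2 difference above 0. The ratio of *C3* to *C4b* went from 3.37 to 4.05 in the WT libraries of iWAT and from 42.1 to 58.1 in those of BAT.

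The median log2 difference between depots was 3.14 over the components and 0.82 over all genes tested, and this shift depends on how the tables are scaled. iWAT and BAT are in separate tables, the iWAT table lists 0 mitochondrially encoded genes, and 37 such genes held 50.6% to 52.0% of the summed FPKM in BAT. With median-ratio scaling the median of all genes was -0.02, 3670 genes were called higher and 3764 lower, and all 8 components were still called higher, from 0.56 for *C3* to 4.04 for *C4b*. Rescaled to TPM over the genes listed for both depots, and so without the mitochondrially encoded ones, the median of all genes was 0.50. At this scaling 6252 genes were called higher and 1910 lower. Centred on the adipocyte markers, the median was -0.52, with 1589 genes higher and 6281 lower, and *C3* at 0.24 was not called (adjusted p = 0.371) while the other 7 were. White adipose RNA was isolated with a kit and BAT RNA with TRIzol in this study, and depot and isolation method cannot be told apart.

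The cell type markers of the depots differed as well. All 12 macrophage markers and all 8 fibroblast markers were called higher in WT iWAT than in WT BAT, with median log2 differences of 3.09 and 2.85. Over all genes tested 72.6% were called higher and 9.15% lower, with a median of 0.82, and these shares depend on the scaling. B cell markers (6 of 6, median 4.18), T cell markers (6 of 6, 3.57) and lymph node stroma markers (5 of 5, 4.32) were called higher too, and 5 of 6 brown adipocyte markers were called lower (median -3.49). The fibroblast markers summed to 738, 846 and 951 FPKM in WT iWAT and to 65.5, 54.8 and 95.9 FPKM in WT BAT, with *Dcn* or *Col3a1* the most abundant. Of the adipocyte markers 6 of 8 were called higher, with a median of 0.79, near the share and the median of all genes. Their part in the depot difference of the components was not tested. Mesothelial markers, of which 2 of 5 are in the iWAT table, summed to at most 2.53 FPKM in iWAT and 0.805 in BAT, but to 60.5 FPKM in white adipose tissue among the 7 tissues, where *Upk3b* had 20.8.

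The rest of the pathway was followed through 45 further genes in 5 lists by role. In the 7 tissues 27 of the 45 were highest in liver and 12 in white adipose tissue, and 1 was listed at 0 in all 7. Of all genes with at least 10 FPKM in 1 tissue, 9.56% were highest in liver and 19.9% in white adipose tissue. Unlike those, the 45 were not limited to genes of that level. By FPKM the initiation of the classical and lectin pathways was mostly a liver list, with 11 of 13 genes highest there. Among them was *Mbl2*, a mannose-binding lectin, at 177 FPKM in liver and at most 0.223 elsewhere. *C1s1*, *C1s2* and, among the regulators, *Serping1* were in liver only 1.26, 1.05 and 1.15 times above white adipose tissue. For *C4b*, at 1.11 times, the order turned with TPM, so these counts are given for FPKM only. The terminal pathway was highest in liver for 5 of 6 genes, with *C8b* at 285, *C9* at 261 and *C8a* at 194 FPKM, all listed at 0 in the 6 BAT libraries and not in the iWAT table. The exception was *C7*, with 165 FPKM in white adipose and 0.667 in liver. Among the regulators *Vtn* had 560.4 FPKM, *Clu* 396, *Serping1* 372 and *Cfi* 284 in liver, and *Serping1*, the inhibitor of C1r and C1s, had 324 in white adipose. *Cfd*, which encodes adipsin, had almost no RNA in liver, with 3090.2 FPKM in white adipose, 638 in brown adipose and 0.423 in liver.

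In iWAT 28 of the 45 pathway genes were tested for the genotype difference, and by limma 0 were called. At the cutoff of the study 5 were higher in MCK-Musclin mice and 0 lower, namely *C1s1*, *Clu*, *Cr2*, *Itgax* and *Itgb2*. Over all genes 5.04% were higher and 0.902% lower at this cutoff, and 17.9% were higher without overlap of the groups, as were 7 of the 28 pathway genes. With 1 library left out at a time, an alternative chosen after the data were seen, 2 to 6 pathway genes were at the cutoff, and of these 5 only *Clu* and *Itgax* stayed in every case. *C1s1*, the partner protease of C1r, had 106, 111 and 56.4 FPKM in WT libraries 1 to 3 and 132.7, 132.6 and 151 FPKM in MCK-Musclin libraries 1 to 3 (log2 fold change 0.66, adjusted p = 0.257). *Clu*, which encodes clusterin, an inhibitor of the terminal pathway, had 135.4, 118 and 73.9 FPKM in WT mice and 184, 190.3 and 285 FPKM in MCK-Musclin mice (1.02, adjusted p = 0.157). For both genes the groups did not overlap, and WT library 3 was the lowest. Without that library *C1s1* was at 0.35 and no longer at the cutoff, and *Clu* was at 0.76. Exons of *C1s1* share 576 bases with those of *Gm16567* on the opposite strand, and the alignment did not use strand.

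The other 3 genes encode complement receptors. *Cr2*, a receptor of C3 fragments on B cells, had 11.9, 7.76 and 6.95 FPKM in WT libraries 1 to 3 and 12.2, 13.2 and 14.8 FPKM in MCK-Musclin libraries 1 to 3 (log2 fold change 0.57, limma adjusted p = 0.215). *Itgax* and *Itgb2* encode the chains of complement receptor 4, and *Itgb2* is shared with complement receptor 3. *Itgax* had 3.21, 2.52 and 3.00 FPKM in WT mice and 5.67, 4.02 and 5.19 FPKM in MCK-Musclin mice (0.60, adjusted p = 0.149), and *Itgb2* had 34.1, 24.8 and 29.5 FPKM in WT mice and 46.7, 36.4 and 46.3 FPKM in MCK-Musclin mice (0.54, adjusted p = 0.173). The groups did not overlap for any of the 3. They did for *Itgam*, which encodes the other chain of complement receptor 3. It had 16.1, 16.9 and 15.6 FPKM in WT mice and 21.0, 8.61 and 19.8 FPKM in MCK-Musclin mice. By role, the medians were 0.22 over 7 initiation genes, 0.13 over 2 alternative pathway genes, 0.06 over 2 terminal genes, 0.10 over 8 regulators and 0.19 over 9 receptors, against 0.06 over all genes. *Cfd* itself had 2517, 2397 and 2466 FPKM in WT mice and 2434, 1899 and 2708 FPKM in MCK-Musclin mice, and its log2 fold change was -0.08 (limma adjusted p = 0.828).

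**Figure D5:**
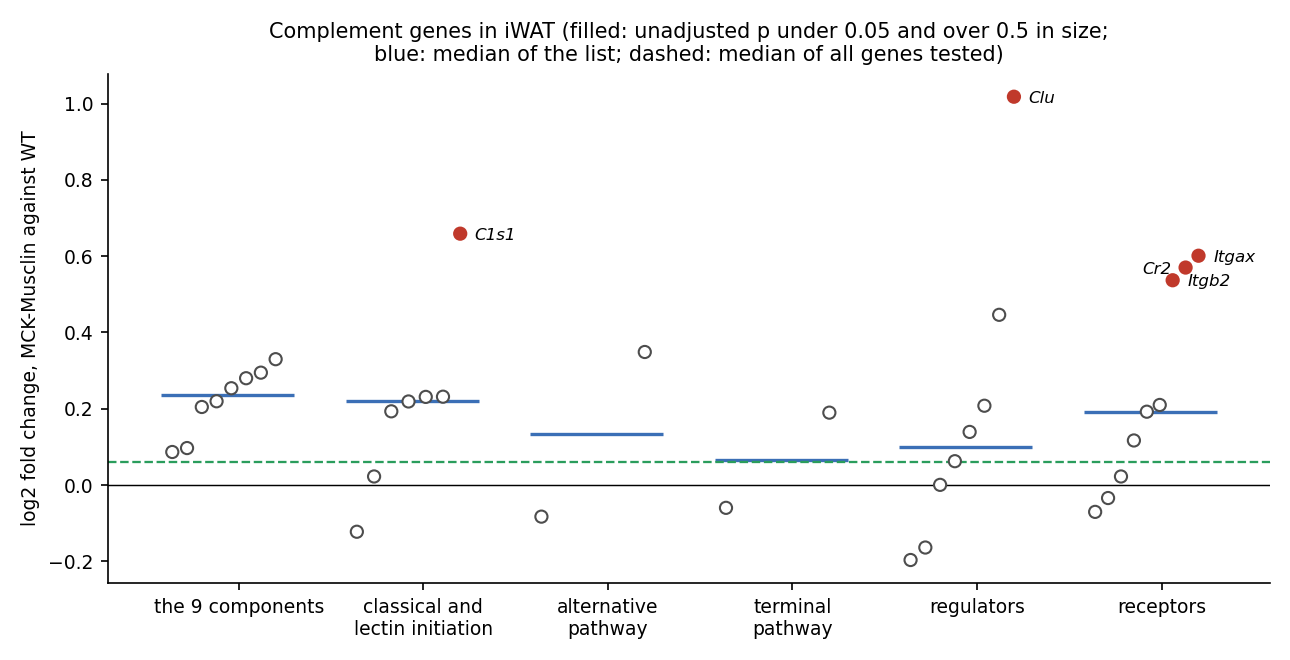
Log2 fold change of MCK-Musclin against WT in iWAT for the 8 components tested and for the 28 further pathway genes tested, by role, 1 point per gene, with the median of each list as a blue line and that of all genes as a dashed line. The 5 filled points are the genes at the cutoff of the study, all above 0.

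Markers of lymphoid cells were also higher in MCK-Musclin iWAT at the cutoff of the study, but by limma 0 were called. Over all genes 5.04% were higher and 0.902% lower at this cutoff. The 6 B cell markers summed to 246, 147 and 127 FPKM in WT libraries 1 to 3 and to 281, 372 and 363 FPKM in MCK-Musclin libraries 1 to 3, with *Cd79a* the most abundant in each. All 6 were at the cutoff of the study and higher in MCK-Musclin mice, with a median log2 fold change of 0.92. The 6 lymph node stroma markers, led by *Cxcl13*, summed to 358, 186 and 164 FPKM in WT mice and to 391.5, 391.9 and 605 FPKM in MCK-Musclin mice (6 of 6 at the cutoff, median 0.88), and the 6 T cell markers to 104, 81.8 and 107 FPKM and to 151, 148 and 153 FPKM (4 of 6 at the cutoff, median 0.61). *Cr2*, with at most 0.0943 FPKM in the 7 tissues, was listed at 6.95 to 14.8 FPKM in iWAT, and B cell markers summed to 4.11 FPKM in white adipose tissue among the 7 tissues. Of the 12 macrophage markers 2 were at the cutoff, with a median of 0.22. Of neutrophil and cardiomyocyte markers 1 of 3 and 2 of 2 tested were at the cutoff and higher, with medians of 0.66 and 0.55. The brown adipocyte markers went the other way, with 5 of 6 at the cutoff and lower in MCK-Musclin mice and a median of -1.61. The skeletal myocyte markers summed to 5.27, 471 and 2457 FPKM in WT mice and to 6.67, 83.4 and 96.3 FPKM in MCK-Musclin mice. The part of these cells in the values of the complement genes was not tested.

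In BAT 19 of the 45 pathway genes were tested, 0 were called by limma and 0 were at the cutoff of the study or at an unadjusted p under 0.05, with a median of 0.04. Over all genes 1.85% were higher and 2.15% lower at this cutoff. Groups did not overlap for 2 of the 19, both higher in MCK-Musclin mice, against 4.38% of all genes higher and 5.63% lower. *Cfd* had 117, 71.7 and 154 FPKM in WT libraries 1 to 3 and 142, 74.8 and 137 FPKM in MCK-Musclin libraries 1 to 3. Of 10 macrophage markers tested 2, *Csf1r* and *Folr2*, were at the cutoff and higher in MCK-Musclin mice, with a median of 0.26 over the list. The skeletal myocyte markers summed to 308, 477 and 293 FPKM in WT mice and to 1094, 486 and 699 FPKM in MCK-Musclin mice, with 6 of 6 at the cutoff, and B cell markers to at most 1.02 FPKM. By limma 0 of these macrophage and myocyte markers were called.

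Between WT iWAT and WT BAT, 25 of the 29 pathway genes tested were called higher in iWAT and 3 lower, on the background of 72.6% of all genes higher and 9.15% lower, which depends on the scaling. The 3 were *C1rl* at -1.03 log2 (adjusted p = 1.31e-06), *Cpn2*, a subunit of the carboxypeptidase that trims C3a and C5a, with -2.96 (adjusted p = 9.4e-09), and *Cd59b*, an inhibitor of the membrane attack complex, with -1.46 (limma adjusted p = 3.78e-05). All 9 receptors tested and both alternative pathway genes were higher, with *Cfd* at 4.48.

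The genes whose pattern was most like that of the C1q chains were sought among protein-coding genes by the correlation of log2(FPKM + 1). Over the 7 tissues, among 9874 genes with at least 10 FPKM in 1 of them, these were *Ehmt1* (r = 0.989), *Cyp20a1* (0.986), *Denn2b* (0.984), *Csf1r* (0.980), which encodes the receptor of macrophage colony-stimulating factor, and *Eapp* (0.980). For *C3* they were *Cul4a* (0.977), *Cat* (0.977), *Alas1* (0.976), *Retsat* (0.962) and *Scp2* (0.958). Over the 12 cold libraries with each depot's mean subtracted, among 3219 genes, those nearest to C1q were *Ccl6* (0.928), *Hmox1* (0.882), *Igbp1* (0.881), *Selenop* (0.877) and *Cbr2* (0.876), and those nearest to *C3* were *Selenop* (0.876), *Scpep1* (0.850), *Tgfbr2* (0.839), *Gsto1* (0.789) and *Ceacam1* (0.786). The points are 7 tissues or 12 libraries that share their scaling, and no p-value was computed. Within the components, *C1ra* followed *C2*, *C3*, *C4b* and *Cfb* over the tissues at r of 0.924 to 0.969, and the C1q chains followed each other over the cold libraries at 0.762 to 0.950.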

How the data were processed

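Values were those of 19 libraries in 3 tables. The authors filtered reads with fastp and bowtie2, aligned them to GRCm38 (mm10) with HISAT2 without using strand, and deposited FPKM calculated by StringTie; the paper's methods and the submitters' processing notes give different versions for Bowtie2 (2.4.1 in the notes), and the notes also list Cuffdiff. The iWAT table also holds the authors' own comparison (fold changes, p-values, FDR and group means), which was not used. Its 13756 genes were selected by a filter not given in the sources used here. All value columns were mapped.

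Genotypes were compared within each table by limma 3.58.1 in R 4.3.3 (lmFit, then eBayes with a mean trend) on log2(FPKM + 1) for genes averaging at least 1 FPKM, adjusted over all of them, and depots in 1 fit of 12 libraries with 4 group means. Python 3.11.15, numpy 2.4.6 and pandas 2.3.3 were used for descriptions. The fit was tested on simulated data. Gene positions are from GENCODE (GRCm38), promoters from RefSeq. Components, 5 lists of the pathway and 15 lists of cell type markers were chosen with earlier results of these data known. The marker lists reported are macrophages, hepatocytes, adipocytes, brown adipocytes, fibroblasts, mesothelium, B cells, T cells, neutrophils, lymph node stroma, skeletal myocytes and cardiomyocytes. The other lists are not reported here. Genes named were all components, pathway genes at a cutoff, among the 12 with the highest maximum or defining a role, the most abundant markers, and the 5 most similar genes; others were chosen after their values were seen, and some genes that this rule takes in are not reported here. Alternatives were the pseudocount, the filter, 3 other scalings, eBayes without a trend or robust, a replicate block and leaving out each library.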

Additional observations from a re-analysis of the deposited data

How the results depend on the processing

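Over these alternatives, no component was called by genotype in iWAT or BAT by limma at an adjusted p under 0.05, and all 8 were called higher in WT iWAT than in WT BAT, except *C3* centred on the adipocyte markers (0.24). At the cutoff of the study, the number of components higher in iWAT was 1 instead of 0 when centred (*C1ra*, 0.55) and 0 to 1 with 1 library left out (*C1qb*, 0.52, without MCK-Musclin library 2). In BAT it was 1 when centred (*C4b*, 0.48) and 0 to 1 with 1 library left out (*C4b*, 0.48, without MCK-Musclin library 2). Some uncalled values changed sign in BAT. With 1 library left out, *C1qa* ranged from -0.25 to 0.34, *C1qb* from -0.0227 to 0.35, *C1qc* from -0.19 to 0.34, *C1ra* from -0.0640 to 0.0626, *C3* from -0.18 to 0.0416 and *Cfb* from -0.15 to 0.32. *C1ra* was 0.0143 with TPM and 0.15 when centred, and *C3* was 0.0843 when centred. In iWAT every component tested kept its sign under every alternative, and with 1 library left out *C1ra* ranged from 0.23 to 0.48, *C2* from 0.0164 to 0.19, *C4b* from 0.0209 to 0.22 and *Cfb* from 0.20 to 0.37. Of the further pathway genes 5 were at the cutoff in iWAT, and 2 to 6 with 1 library left out, an alternative chosen after seeing the data: *C1s1* ranged from 0.35 to 0.83, *Cr2* from 0.43 to 0.78 and *Itgb2* from 0.42 to 0.65. The causes were not tested.

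Numbers of genes called depended on the libraries and the scaling. In iWAT 0 genes were called, but 300 when centred and 0 to 86 with 1 library left out, and at the cutoff of the study 615 were higher and 110 lower, but 2028 and 34 when centred. In BAT 202 were higher and 234 lower at the cutoff, but 666 and 45 when centred. For the difference between depots in the genotype effect, 1 gene was called, 0 to 80 with 1 library left out, and 0 with a pseudocount of 0.1, a filter at 5 FPKM, TPM, median-ratio scaling, centring or the block. With 1 library left out this difference changed sign for *C1qa* (-0.12 to 0.47), *C1qb* (-0.0566 to 0.37), *C1qc* (-0.0911 to 0.44) and *Cfb* (-0.0392 to 0.43). Whether replicate numbers pair the genotypes within a table is not stated. In their deviations from the group means, same-numbered libraries of iWAT correlated at 0.235, 0.0615 and 0.107, and differently numbered ones at -0.180 to 0.0702. In BAT the values were -0.0951, -0.00463 and 0.00937 for the same number and -0.0842 to 0.0795 for different ones. Deviations from means of 3 libraries depend on each other, so these values cannot decide on pairing. Between the depots of a genotype, same-numbered libraries correlated at -0.0188 to 0.138. Whether the depots came from the same mice is not stated, so the 12 libraries were fitted as independent. With the replicate number as a block, 1 component was at the cutoff of the study in BAT (*C4b*), and 0 were called. No counting error can be given for *Hc*, as its reads are not known.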
